A study of Mus musculus with 13 samples.

Results

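Alb, Afp, Ahsg, Apoa1, Apoa2, Apoh, Ttr, Fgb and Fgg encode proteins that the fetal liver and the yolk sac secrete into blood. The 9 genes were selected on measured values, namely their high intensity in a whole newborn mouse reference and the rise of Afp and Alb on some of the arrays of embryonic lower urinary tract, and they are 9 of the 15019 genes tested in the series. All 9 had a probe set with a single gene symbol, and the probe set with the highest mean log2 intensity over 13 arrays stood for each gene. All 9 passed the filter on low intensity over the 13 arrays, which asks for 3 arrays above an intensity of 167.76 (7.39 on the log2 scale, the filter level). On the 10 region arrays alone 6 passed and 3 did not, namely Ahsg, Fgb and Fgg, so these 3 entered the tests through the reference alone.

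The study profiled 3 microdissected regions of the embryonic mouse lower urinary tract on Affymetrix MOE430 arrays, on which sets of short oligonucleotide probes report each gene. Bladder had 3 arrays (replicates 2, 6 and 8), the urogenital sinus 4 (replicates 1, 2, 6 and 7) and the urethra 3 (replicates 1, 2 and 6). These embryos, of embryonic day 14, had FVB/N mothers and SMGA/EGFP transgenic fathers, and the reporter, named for the smooth muscle actin gene Actg2, was used to find the tissues: fluorescence marked bladder and urethra, and the urogenital sinus was the dark stretch between them. Replicates 1 and 2 were of Theiler stage 21 and replicates 6, 7 and 8 of Theiler stage 22. The newborn reference had 3 arrays of RNA from whole wild-type FVB/N mice of postnatal day 1 (Theiler stage 27), a pool of 4 males and 4 females used as a common standard. The sex of the embryos is given as unknown, the region samples were not pooled, and bladder replicate 2 is labelled as primitive bladder. Whether 1 embryo gave several of the arrays is not stated in the labels, and p-values therefore reflect the spread among the samples at hand, which may be technical.

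Hepatocytes and the visceral endoderm of the yolk sac make most of the protein of fetal plasma. Alpha-fetoprotein is the main plasma protein of the fetus and gives way to albumin after birth, and apolipoproteins, fetuin, transthyretin and fibrinogen are secreted by the same cells. Transcription of these genes is known to depend on a small set of factors, among them HNF1, HNF4 and C/EBP proteins.

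Alb, Afp and the afamin gene Afm lie next to each other in the genome in that order, and Fgg, Fga and Fgb form another run of neighbours, as do Apoa1, Apoc3, Apoa4 and Apoa5 (gene order of RefSeq, mouse assembly GRCm38.p6). The 150 bases before the annotated start are shown for Alb and Afp, whose patterns over the region arrays were alike. Their neighbour Afm, which had another pattern, is shown too. So is Fgb, a gene that stayed near the floor of the scale on every region array. The bases are from RefSeq on the GRCm38.p6 build, written 5′ to 3′ on the strand of the gene. Capitals mark the letters GTTAAT (a motif of HNF1) and TTGCNNAA (a motif of C/EBP) on either strand.

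Afp (chr5:90490564-90490713, plus strand): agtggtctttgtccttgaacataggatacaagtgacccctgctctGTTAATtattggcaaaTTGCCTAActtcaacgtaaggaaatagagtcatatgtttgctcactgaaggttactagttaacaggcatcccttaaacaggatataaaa

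Alb (chr5:90460720-90460869, plus strand): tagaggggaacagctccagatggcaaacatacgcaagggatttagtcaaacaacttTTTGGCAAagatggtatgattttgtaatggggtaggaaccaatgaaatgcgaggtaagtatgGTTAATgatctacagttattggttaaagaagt

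Afm (chr5:90518799-90518948, plus strand): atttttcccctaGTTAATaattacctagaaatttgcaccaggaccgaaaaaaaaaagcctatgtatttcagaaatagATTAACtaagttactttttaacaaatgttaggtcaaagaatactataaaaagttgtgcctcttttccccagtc

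Fgb (chr3:83049864-83050013, minus strand): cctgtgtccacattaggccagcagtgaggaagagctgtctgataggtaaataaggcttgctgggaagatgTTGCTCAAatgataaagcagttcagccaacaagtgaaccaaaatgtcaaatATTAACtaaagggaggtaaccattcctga

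Within 250 bases before the start, 8 of the 9 genes were searched on both strands, and the promoter of Ttr was not searched. GTTAAT was found in 3 of the 8, namely Afp, Alb and Fgb, against 6.43% of all 32851 promoter windows of that length. TTGCNNAA was found in 5, namely Afp, Alb, Ahsg, Apoa2 and Fgb, against 9.56% of windows. The 2 motifs did not overlap in the stretches printed. The HNF4 motif CAAAGTCCA was in 0 of the 8 genes, against 0.384% of all windows. TATAAA, left in lower case above, was in Afp and Apoa2, against 12.4% of windows. Apoa2 had windows at different annotated starts, and its TTGCNNAA and TATAAA matches were in different windows. A gene was counted if any of its windows matched, while the percentages are over single windows. Afm held GTTAAT at 138 and at 73 bases before its start and no TTGCNNAA. A match of letters is a description of the sequence, and no match says only that these letters are not in the window.

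On the newborn reference all 9 genes were bright. Each was above every region array on every reference array, a separation seen for 2125 of all 15019 genes (14.1%); since the genes were selected on this contrast, nothing is read from it. The reference mean exceeded the region mean by 5.23 (Apoa2) to 10.23 (Fgg) on the log2 scale, with a median of 8.14 over the 9 genes beside 0.08 over all genes tested. The whole animals of the reference contain liver. In bulk RNA, fewer cells of a type and less RNA per cell cannot be told apart.

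**Figure D1:**
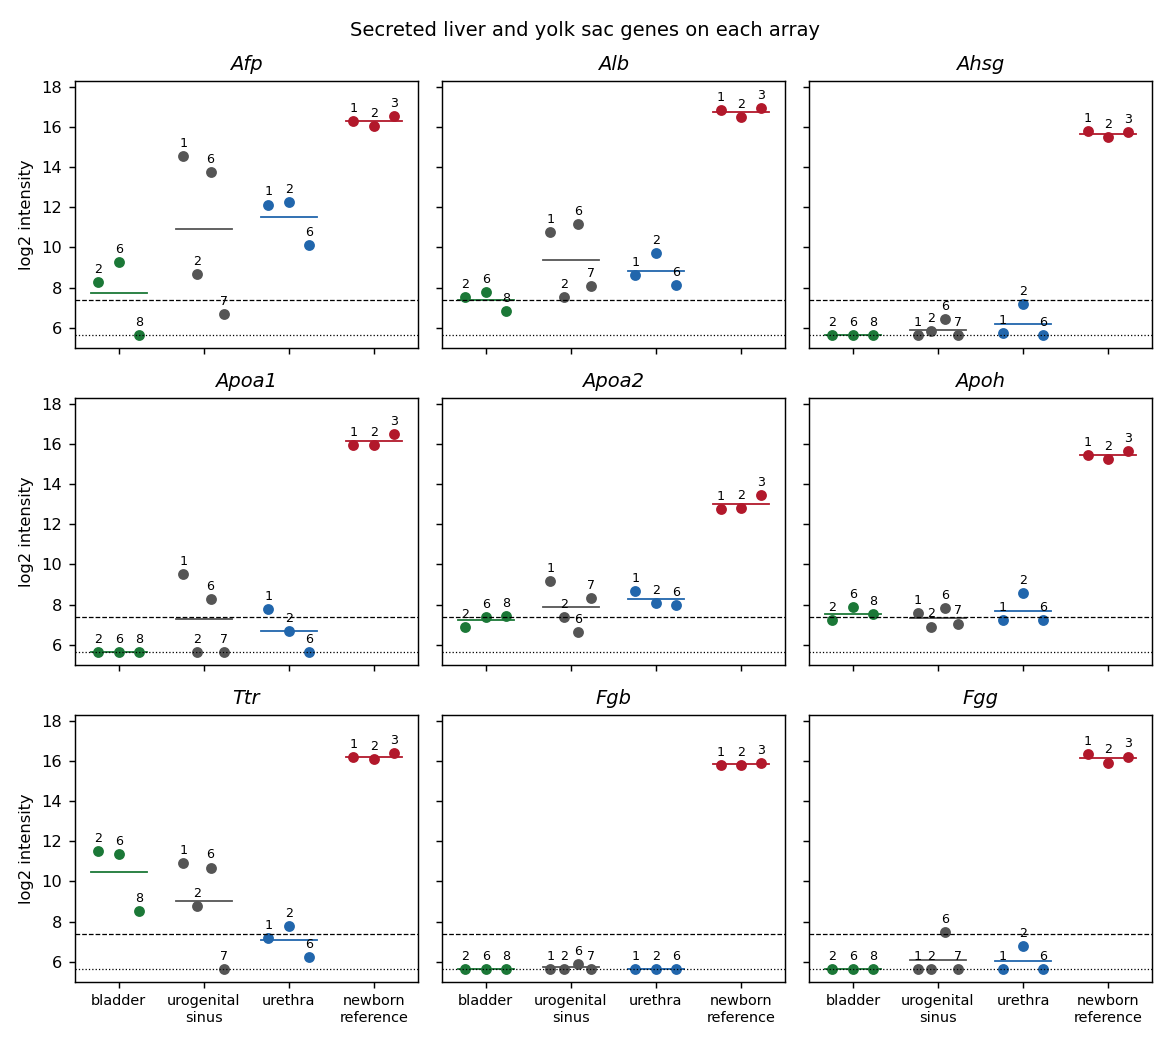
Log2 intensity of the 9 genes on each of the 13 arrays, grouped by region and by the newborn reference on the horizontal axis; points carry the replicate number, short bars are group means, the dotted line is the floor of the scale (5.65) and the dashed line the filter level (7.39). The reference arrays are above all region arrays in every panel, and Afp spreads from 5.65 to 14.57 over the region arrays.

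Alpha-fetoprotein, the fetal counterpart of albumin that binds fatty acids, had the widest spread of the 9 genes over the region arrays. Its log2 intensity on the bladder was 8.27, 9.28 and 5.65 (replicates 2, 6 and 8), and on the urogenital sinus it was 14.57, 8.65, 13.79 and 6.67 (replicates 1, 2, 6 and 7). On the urethra it was 12.14, 12.28 and 10.13 (replicates 1, 2 and 6), and on the reference 16.32, 16.04 and 16.57. The sinus thus held the highest arrays, replicates 1 and 6, together with the second lowest region array, replicate 7, and it overlapped the bladder and the urethra. Every urethra array was above every bladder array. By this probe set, sinus replicate 1 was 3.33-fold below the reference mean, while bladder replicate 8 was at the floor of 5.65, set at the 20th percentile of the whole table. Region means were 7.73 ± 1.87 (bladder, SD, n = 3), 10.92 ± 3.86 (urogenital sinus, SD, n = 4) and 11.52 ± 1.20 (urethra, SD, n = 3), against 16.31 ± 0.26 (reference, SD, n = 3). The reference arrays repeat 1 pooled RNA, so their SD is not a spread among animals.

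Afp had 5 probe sets, and they did not all show this pattern. Probe sets 1416646_at and 1436879_x_at were also highest on sinus replicates 1 (11.73 and 12.85) and 6 (12.16 and 12.24) and reached 16.33 to 16.69 and 16.15 to 16.68 on the reference. By them, sinus replicate 1 was 28.5-fold and 11.8-fold below the reference mean, so its nearness to the reference depended on the probe set. Probe set 1436880_at stayed at or near the floor on all arrays and at most 5.94 on the reference. Probe set 1436881_x_at was 8.21, 9.34 and 7.79 on the reference (replicates 1, 2 and 3). Its 8.61 on sinus replicate 1 was above reference replicates 1 and 3, and it was at the floor on sinus replicate 6. By 1436881_x_at the reference was therefore not above every region array. The last 2 are the dimmest sets for the gene, and values of Afp here come from 1416645_a_at.

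Albumin, the main carrier protein of plasma, spanned 4.36 on the log2 scale over the region arrays. On the bladder its log2 intensity was 7.51, 7.79 and 6.82, and on the urogenital sinus 10.75, 7.55, 11.18 and 8.06. On the urethra it was 8.63, 9.72 and 8.15, against 16.84, 16.49 and 16.94 on the reference. The same sinus arrays as for Afp, replicates 1 and 6, were the highest, followed by urethra replicate 2, and bladder replicate 8 was again the lowest. That lowest place depended on the scaling. With quantile normalization and with each array centred on its median, sinus replicate 2 was the lowest (7.75 and 7.64). Bladder and urethra did not overlap, and the sinus overlapped both. The highest region array was 47.6-fold below the reference mean, a wider gap than for Afp.

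Over the 10 region arrays the log2 intensities of Afp and Alb had a Pearson r of 0.91 (Spearman 0.92), and r was 0.84 without sinus replicates 1 and 6. These are descriptions over 10 arrays that share the embryonic day, the amplification and, possibly, embryos. By the same measure, and with the 9 genes themselves left out of the ranking, the 5 tested genes most like Afp were Evi5l (0.957), 6530409C15Rik (0.950), the amino acid transporter Slc6a18 (0.921), the actin nucleation factor Whamm (0.919) and the phospholipase Pnpla6 (0.914). For Alb they were Sun5 (0.924), the corticosteroid-binding globulin Serpina6 (0.922), the lens crystallin Crybb1 (0.909), 4930571B16Rik (0.903) and Slc6a18 (0.897). Most of them moved over much smaller ranges than Afp: Evi5l lay between 8.48 and 9.52 on the region arrays. Serpina6, which is also secreted by liver, was at 7.47 and 8.43 on sinus replicates 1 and 6 and between 8.75 and 9.13 on the reference. Slc6a18 was at most 7.03 on the region arrays, under the filter level, and entered the tests through the reference (8.90 to 9.40). Among the region arrays Sun5 passed that level on sinus replicates 1 and 6 alone, and Crybb1 on sinus replicate 1 alone. Without sinus replicates 1 and 6, r ran from 0.835 to 0.956 for the 5 genes most like Afp and from 0.705 to 0.898 for those most like Alb.

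**Figure D2:**
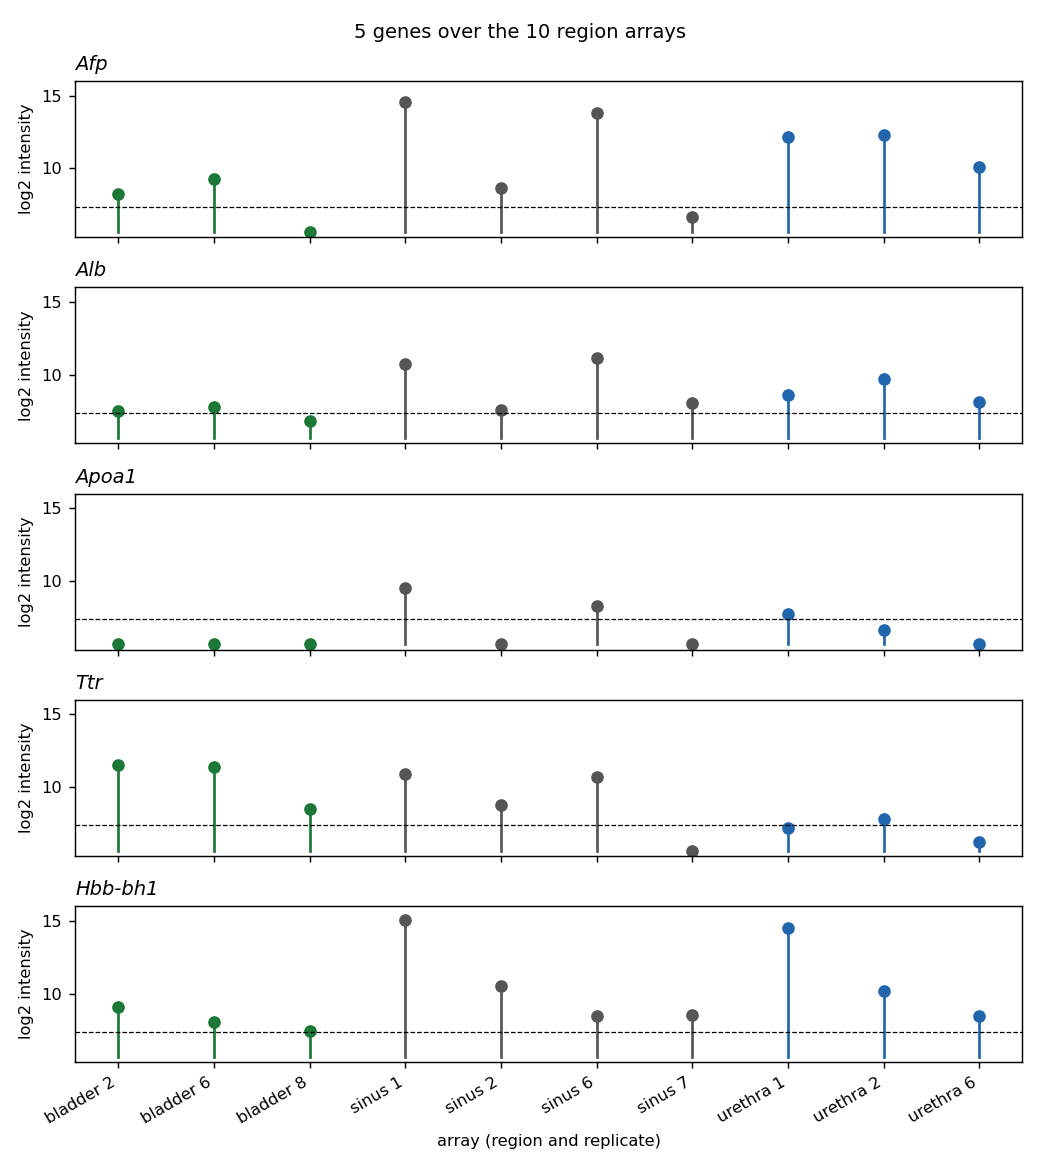
Log2 intensity of Afp, Alb, Apoa1, Ttr and the embryonic globin gene Hbb-bh1 on the 10 region arrays, with 1 point for each array, lines drawn from the floor (5.65), colours by region and a dashed line at the filter level (7.39). Afp, Alb and Apoa1 are highest on sinus replicates 1 and 6, Ttr is highest on bladder replicates 2 and 6, and Hbb-bh1 is highest on sinus replicate 1 and urethra replicate 1.

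Of the apolipoproteins, which carry lipid in plasma, Apoa1 of high-density lipoprotein came closest to the pattern of Afp. No bladder array rose above the floor. On the urogenital sinus it was 9.53, 5.65, 8.29 and 5.65, on the urethra 7.76, 6.67 and 5.65, and on the reference 15.95, 15.96 and 16.50. It exceeded the filter level on sinus replicates 1 and 6 and urethra replicate 1, and was at the floor on 6 of the 10 region arrays. The other 3 probe sets of Apoa1 were also highest on sinus replicate 1 (8.30 to 9.09), and urethra replicates 1 and 2 changed order between them. Its r was 0.87 with Afp and 0.87 with Alb (0.74 and 0.63 without sinus replicates 1 and 6).

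Apoa2, the second protein of high-density lipoprotein, was the dimmest of the 9 genes on the reference, at 12.76, 12.84 and 13.46. On the bladder it was 6.90, 7.36 and 7.42, on the urogenital sinus 9.17, 7.36, 6.63 and 8.33, and on the urethra 8.69, 8.10 and 7.99. Unlike for Afp and Alb, sinus replicate 6 was its lowest region array, while sinus replicate 1 was its highest. On the deposited scale bladder and urethra did not overlap. They overlapped with quantile normalization (bladder replicate 8 at 8.41, urethra replicate 2 at 7.68). With each array centred on its median they also overlapped (8.37 and 7.645 on these arrays).

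Apoh, which encodes the phospholipid-binding beta-2-glycoprotein I, stayed within 1.66 on the log2 scale over the region arrays. It was 7.25, 7.86 and 7.52 on the bladder, 7.56, 6.91, 7.81 and 7.06 on the urogenital sinus, and 7.25, 8.57 and 7.25 on the urethra. On the reference it was 15.44, 15.26 and 15.63. The 3 regions overlapped, with urethra replicate 2 the highest. Its other probe set, 1447719_at, differed much less between regions (7.06 to 8.23) and reference (8.50 to 9.53).

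Transthyretin, the carrier of thyroid hormone and retinol-binding protein, had another order of arrays than Afp and Alb. Ttr was 11.54, 11.38 and 8.54 on the bladder, and 10.92, 8.76, 10.70 and 5.65 on the urogenital sinus. On the urethra it was 7.17, 7.79 and 6.25, against 16.21, 16.09 and 16.40 on the reference. The bladder held the 2 highest arrays, replicates 2 and 6, and all 3 bladder arrays were above all 3 urethra arrays, the reverse of Afp and Alb; the sinus overlapped both. The r of Ttr was 0.27 with Afp and 0.23 with Alb, and -0.11 and -0.36 without sinus replicates 1 and 6. Probe sets 1455913_x_at and 1459737_s_at gave the same separation of bladder and urethra (6.90 to 10.68 against 5.91 to 6.77, and 7.74 to 11.01 against 6.15 to 7.28), while among the region arrays 1451580_a_at was above the floor only on bladder replicates 2 (8.32) and 6 (6.37) and sinus replicate 1 (6.46). Choroid plexus is another known source of transthyretin; of its 6 markers, Otx2, Kcne2 and Kl were under the filter level on all region arrays, Folr1 passed it on some, and Clic6 and Aqp1 passed it on all. Aqp1 was highest on bladder replicates 2 and 6 (9.87 and 9.27), as Ttr was, and Clic6 was highest on the urethra, where the mean of Ttr was lowest. The part of choroid plexus markers in the level of Ttr was not tested.

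Ahsg, the plasma glycoprotein fetuin-A that binds calcium phosphate, did not reach the filter level on any region array. On all 3 bladder arrays its log2 intensity equalled the floor. It was 5.65, 5.86, 6.43 and 5.65 on the urogenital sinus and 5.72, 7.17 and 5.65 on the urethra, where replicate 2 was the highest region array. The reference was at 15.80, 15.49 and 15.77, and its mean was at least 314-fold above the regions when set against the filter level, which stands here for a limit of detection.

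Fgb and Fgg encode the beta and gamma chains of fibrinogen, the clotting protein. Fgb was at the floor on 9 of 10 region arrays and at 5.89 on sinus replicate 6, against 15.81, 15.83 and 15.91 on the reference, whose mean was at least 352-fold above the regions by the same bound. Fgg was at the floor on 8 region arrays, at 7.46 on sinus replicate 6 and at 6.77 on urethra replicate 2, against 16.37, 15.93 and 16.23 on the reference. Only sinus replicate 6 passed the filter level of 7.39 for Fgg. The alpha chain gene Fga, named for its place between them, was at 8.35 on sinus replicate 1, 7.03 on urethra replicate 1 and 6.14 on sinus replicate 6, at the floor on the other 7 region arrays, and between 13.17 and 14.74 on the reference. The array that was highest for Fga was therefore at the floor for Fgb and Fgg.

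Counted by array, sinus replicates 1 and 6 each had 6 of the 9 genes above the filter level and urethra replicate 2 had 5. Bladder replicate 6 and urethra replicate 1 had 4, bladder replicates 2 and 8, sinus replicate 2 and urethra replicate 6 had 3, and sinus replicate 7 had 2. Sinus replicate 6 was among the 2 highest region arrays for 6 of the genes, sinus replicate 1 for 4 and urethra replicate 2 for 3. Bladder replicate 6 was so for 2, and bladder replicate 2 and urethra replicate 1 for 1 each. Every region, and Theiler stage 21 as well as 22, thus held an array that was high for some of the genes, and no array was the highest for every gene.

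**Figure D3:**
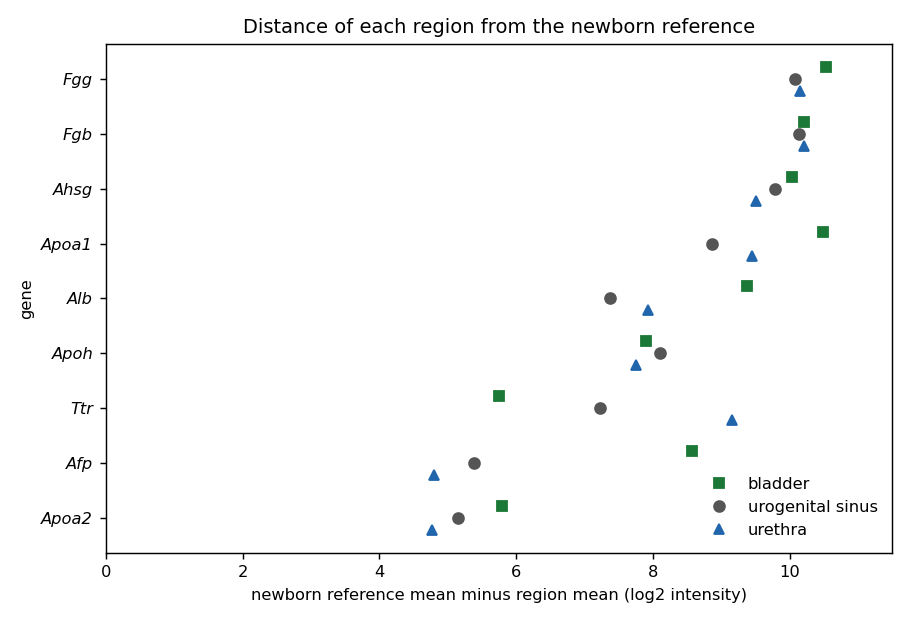
Difference between the newborn reference mean (n = 3) and the mean of each region (bladder n = 3, urogenital sinus n = 4, urethra n = 3) in log2 intensity for the 9 genes, ordered by the difference over all region arrays. Ttr is nearest to the reference in bladder (5.74) and farthest in urethra (9.16), Afp is farthest in bladder (8.57), and Fgb, at or near the floor in every region, differs by 10.14 to 10.20.

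The regions were compared to ask whether the genes differ between neighbouring tissues, with limma on the 10 region arrays and Benjamini-Hochberg adjustment over 15019 genes. The calls are at an adjusted p under 0.05. Since the rise of Afp and Alb on some region arrays was part of how the genes were selected, their values are no independent evidence of a region difference. Between bladder and urogenital sinus, 0 of the 9 genes passed, beside 382 of all genes (2.54%), and 1 had an unadjusted p under 0.05. The median difference of the 9 was -0.45 (all genes -0.19). The smallest p belonged to Alb, lower in bladder by a difference of -2.01 (SE 0.88, limma adjusted p = 0.281). With limma array weights, which set the weight of sinus replicate 6 to 7.02 and that of sinus replicate 1 to 0.229, 3 of the 9 passed in this comparison, Alb (-3.07, adjusted p = 0.0158), Apoa1 (-2.24, 0.0287) and Fgg (-1.47, 0.0371), beside 2668 of all genes (17.8%). Fgg entered the tests through the reference alone and, of the bladder and sinus arrays, was above the floor only on sinus replicate 6. Apoa1 was at the floor on every bladder array, and Alb was selected for its rise, so nothing is read from these calls.

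Between urethra and urogenital sinus, 0 of the 9 passed in limma, beside 2 of all genes (0.0133%), and 0 had an unadjusted p under 0.05. The smallest p belonged to Ttr, at a urethra minus sinus difference of -1.93 (SE 1.24, limma adjusted p = 0.632). The median difference was -0.06 for the 9 genes and 0.05 for all genes.

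Between bladder and urethra, 4 of the 9 genes had arrays that did not overlap, Ttr higher in bladder and Afp, Alb and Apoa2 lower. Such separation in either direction was seen for 34.5% of all genes. For Apoa2 it was lost with quantile normalization and with each array centred on its median. In limma 0 of the 9 passed, beside 651 of all genes (4.33%), and 1 had an unadjusted p under 0.05. The smallest p belonged to Ttr, at a bladder minus urethra difference of 3.42 (SE 1.32, limma adjusted p = 0.159). The adjusted p of the other genes reached from 0.256 (Afp, -3.78, SE 1.94) to 1 (Fgb, at the floor in both regions). All urethra arrays carry titles of 1 style that no other region shares, so title style and urethra can be compared only through the reference arrays.

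Between Theiler stages 22 and 21, with region as a covariate, 0 of the 9 genes passed in limma, beside 0 of all genes (0%), of which 3830 had an unadjusted p under 0.05; 0 of the 9 did. The smallest p belonged to Ttr, at a stage 22 minus 21 difference of -1.52 (SE 0.99, limma adjusted p = 0.366). The median difference was -0.15 for the 9 genes and -0.11 for all genes. For Afp, stage 21 held the sinus values 14.57 and 8.65, and stage 22 the sinus values 13.79 and 6.67.

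Of 42 other secreted liver and yolk sac proteins, chosen with earlier results of these data known, 37 had a probe set and 36 were tested. On the reference 36 to 37 of them were above the filter level. On the bladder 2 to 6 were, on the urethra 4 to 14, and on the sinus 6 to 18, with 18 on replicate 1, 6 on replicate 2, 11 on replicate 6 and 10 on replicate 7. Their summed intensity was 2983 to 3595 on the bladder, 3251 to 7343 on the sinus, 4031 to 5563 on the urethra and 397671 to 478558 on the reference, and 13 of the 37 were under the filter level on all region arrays. Sinus replicate 1, highest for Afp, was also highest by this sum, and sinus replicate 6 came next at 6196.

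In limma 1 of these 36 passed between bladder and sinus, beside 2.54% of all genes, and 0 in the other 3 comparisons. It was Afm, whose gene is the neighbour of Afp, lower in bladder at a difference of -2.04 (SE 0.40, limma adjusted p = 0.0332). Afm was 6.70, 6.98 and 6.39 on the bladder, 8.92, 8.47, 9.19 and 8.33 on the sinus and between 6.74 and 8.10 on the urethra. All 4 sinus arrays were therefore above all bladder and urethra arrays, including sinus replicates 2 and 7, where Afp was at 8.65 and 6.67. On the reference Afm was at least 12.51. A count of 1 in 36 is near the share of all genes, so nothing is read from that count.

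The 4 tested genes of this list with the widest range over the region arrays were Ttpa, F2, Itih2 and Serpinf2. Prothrombin, F2, was 8.31 and 9.09 on sinus replicates 1 and 6 and at most 8.23 on the other arrays of the regions. The vitamin E carrier Ttpa went the other way, at the floor on sinus replicate 1 and at most 9.56 on the region arrays, on bladder replicate 8. The plasmin inhibitor Serpinf2 spanned 5.65 to 8.63, and the hyaluronan-binding inhibitor Itih2 5.65 to 8.75, each highest on sinus replicate 1.

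Hepatocyte genes for proteins that are not secreted were mostly dim on the region arrays. Of 25 listed, 22 had a probe set and 20 were tested. Above the filter level were 3 to 6 on the bladder, 6 to 10 on the sinus, 9 to 10 on the urethra and 20 to 22 on the reference, and 8 of the 22 were under it on all region arrays, among them the urea cycle gene Otc, Tat, Pck1 and G6pc. Their summed intensity was 2309 to 2873 on the bladder, 3953 to 6280 on the sinus, 4482 to 5426 on the urethra and 287783 to 331685 on the reference. Within the sinus the sum was lowest on replicate 1 (3953), which had the most genes above the filter level (10, against 6, 7 and 9 on replicates 2, 6 and 7). That order of sums came from Prox1: without it, in a sum added after the values were seen, the sinus arrays lay between 2958 and 3264, above the bladder (2153 to 2691) and below the urethra (3622 to 4702). The liver regulator Hnf4a was above the filter level on urethra replicate 2 alone (8.70).

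**Figure D4:**
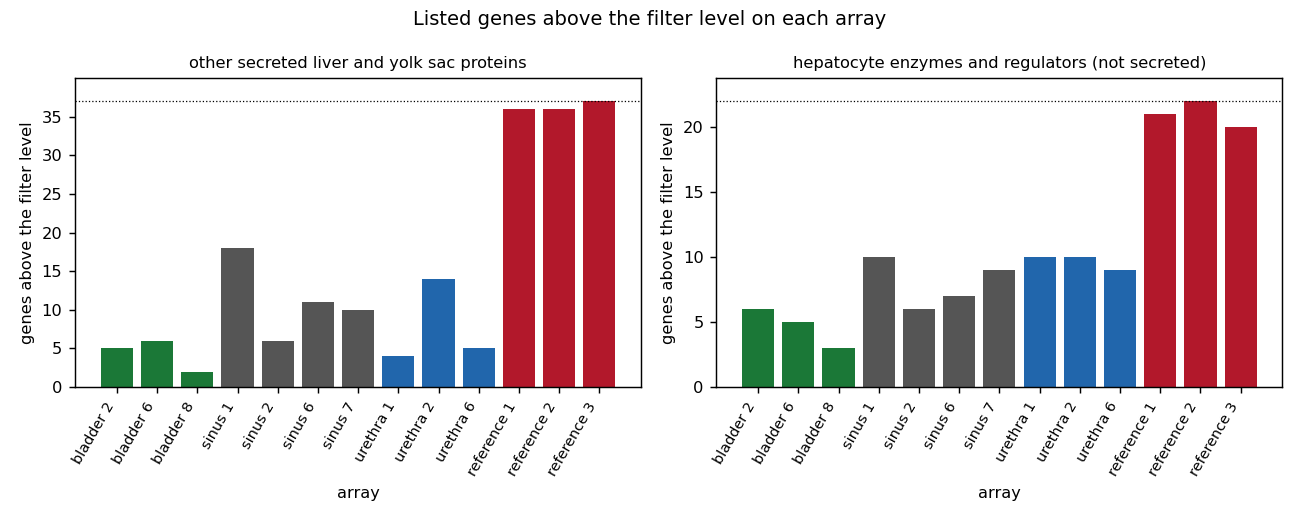
Number of genes above the filter level (7.39) on each of the 13 arrays for 37 other secreted proteins (left) and 22 hepatocyte genes for proteins that are not secreted (right), with colours by group and a dotted line at the number of genes with a probe set. Sinus replicate 1 has 18 secreted genes above the level against 2 to 6 on the bladder, and the hepatocyte genes number 3 to 10 on the region arrays.

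The widest range of the hepatocyte list belonged to the arginase gene Arg1, Prox1, Fbp1 and Cebpa. In limma Prox1, a regulator of liver and lymphatic cells, was lower in bladder than in sinus (-3.15, SE 0.70, adjusted p = 0.0486), and Arg1 was lower in bladder than in urethra (-3.53, SE 0.72, adjusted p = 0.0281). No other gene of the 20 passed in the 4 comparisons. Of all genes, 2.54% passed between bladder and sinus and 4.33% between bladder and urethra. Prox1 was 9.45 on sinus replicate 1 and 11.70 on replicate 6, but 11.17 and 11.66 on replicates 2 and 7, so it did not follow Afp. Fbp1, an enzyme of gluconeogenesis, was at the floor on sinus replicates 1 and 6, and Cebpa spanned 6.66 to 9.85.

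Of 14 visceral endoderm and yolk sac genes outside the list of secreted plasma proteins, 13 had a probe set and 12 were tested. Of the 12, 1 passed between bladder and sinus (beside 2.54% of all genes), 2 between bladder and urethra (beside 4.33%) and 0 in the other comparisons. Foxa2, a regulator of endoderm, was lower in bladder than in sinus (-3.95, SE 0.41, limma adjusted p = 0.00387) and than in urethra (-4.61, SE 0.43, 0.00174), and Gata6 was higher in bladder than in urethra (3.48, SE 0.63, 0.0196). The receptor gene Amn was 8.91 on sinus replicate 1, 7.46 on replicate 6, at most 6.74 on the other region arrays and 12.43 to 12.78 on the reference, and its partner Cubn was at most 7.49 on the region arrays. Lrp2 spanned 5.65 to 8.93, highest on sinus replicate 1. The summed intensity of the 13 genes was 31175 to 34588 on the bladder, 20871 to 29684 on the sinus and 18689 to 22130 on the urethra, while the number of them above the filter level was 6 on each bladder array, 8 to 10 on the sinus and 7 to 9 on the urethra. The sum and the number thus ordered the regions differently. On the bladder the sum came mostly from Gata6 (12.92 to 13.67), Dab2 (13.36 to 14.09) and Sox17 (12.60 to 12.93). The other genes of the list were at most 10.08 there (Sox7). On the urethra Gata6 was 8.74 to 10.44, Dab2 13.105 to 13.76 and Sox17 11.68 to 12.08. The sum therefore does not describe the listed genes as a set.

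Red blood cell genes moved with Afp on some arrays and not on others. Their summed intensity was 154904 on sinus replicate 1 and 116642 on urethra replicate 1, where Afp was 14.57 and 12.14. On urethra replicate 2, where Afp was 12.28, the sum was 95651. On sinus replicate 6, where Afp was 13.79, it was 55077, within the bladder range of 39462 to 64058, but 9 of the genes were above the filter level there, as on sinus replicate 1, against 6 to 7 on the bladder. Hbb-y made up most of the sum on the region arrays. Without it, in a sum added after the values were seen, sinus replicate 6 stood at 3736, above the bladder (1964 to 3310) and far below sinus replicate 1 (45732). The yolk sac globin Hbb-bh1 was 15.04, 10.51, 8.44 and 8.51 on the sinus, 14.51, 10.17 and 8.49 on the urethra and 9.06, 8.03 and 7.41 on the bladder. Hba-x, Slc4a1 and Nfe2, the others of the widest range, were also highest on sinus replicate 1 and urethra replicate 1. Klf1 and Tal1 were highest on sinus replicate 1 as well (9.53 and 11.14). Other genes of the list went the other way. Hemgn was at the floor on sinus replicate 1 and highest on sinus replicate 6 (8.78). Alas2 was 8.32 on sinus replicate 1, 9.57 on sinus replicate 6 and 9.94 on urethra replicate 2. Of the 12 tested, 0 passed in limma in any of the 4 comparisons.

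Leukocyte and platelet genes, with 12 of 12 on the array, had their highest summed intensity among the region arrays on sinus replicate 1 (22563) and urethra replicate 1 (16098), while sinus replicate 6 (8440) was within the bladder range of 7363 to 10018. Pf4, Csf1r and Cd68 were high on these arrays, Ptprc was low on both (5.80 and 6.69), and 0 of 10 tested passed in limma. Of 8 intestinal genes, Cdx1, Vil1, Fabp2 and Slc26a3 were under the filter level on all region arrays, Cdx2 was at most 7.66, and the summed intensity, from 531 to 1140 elsewhere among the region arrays, was 2091 on sinus replicate 1. Cdh17 was 9.96 on that array, Guca2b was at most 8.75 and Lgals4 at most 8.85, and 0 of 7 tested passed in limma. Of the choroid plexus list, 1 of 5 tested genes passed in limma, between bladder and urethra, where 4.33% of all genes did. It was Clic6, lower in bladder (-1.86, SE 0.36, limma adjusted p = 0.0251), while Aqp1 and Folr1 were at most 9.87 and 8.64 on the region arrays. The part of these other cells in the values of the 9 genes was not tested.

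Of the identity list, Actg2, for which the reporter is named, was 13.97, 13.51 and 13.55 on the bladder, 12.89, 13.65 and 13.40 on the urethra and 8.99, 9.31, 7.99 and 10.77 on the sinus. Actg2, Myh11, Cnn1, Acta2 and Tagln of smooth muscle were higher in bladder than in sinus in limma and the basal keratin Krt5 was lower (6 of 16 tested genes, beside 2.54% of all genes). The muscle filament gene Des went the other way without passing, at 7.20, 6.24 and 5.65 on the bladder and 9.79, 8.52, 7.83 and 8.49 on the sinus, and 0 of the 16 passed between urethra and sinus. Between bladder and urethra 3 of the 16 passed in limma, beside 4.33% of all genes. They were Krt5 (-5.06, adjusted p = 0.00174), Hoxd13 (-1.53, 0.0100) and Shh (-1.63, 0.0202), each lower in bladder. The uroplakin genes Upk1a, Upk1b, Upk2 and Upk3a passed in no comparison. Each array had been scaled by the authors to a trimmed mean intensity of 1500.01, and the median intensity ranged from 142 to 455. Arrays have no read depth, and their number limits the precision.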

How the data were processed

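For 45101 probe sets on 13 arrays, the authors deposited linear intensity values in a single table, made with GCOS, per the submitters' processing notes, without version or settings. Per the labels, total RNA was amplified in 2 rounds and labelled with biotin. Such amplification favours the 3′ ends of transcripts.

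Each array's 2% trimmed mean was 1500.01, so no scaling was added. Intensities were floored at the 20th percentile (50.23), log2 transformed, and kept where at least 3 arrays exceeded the 40th percentile (167.76). The 64 control probe sets were set aside. Platform annotation gave 1 symbol to 34945 probe sets, several to 932 and none to 9160; the brightest kept set stood for each of 15019 genes. Tests used lmFit and eBayes (intensity trend, two-sided p) of limma 3.58.1 under R 4.3.3, with 7 residual degrees of freedom between regions and 6 between stages, and tested on simulated data. Contrasts with the reference, on which the genes were selected, are described without a test.

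The 9 genes, the marker lists and the motifs were chosen with earlier results of these data known. Named are all 9 genes, the smallest p in each comparison and the 5 genes most like Afp and Alb. Up to 4 genes of each list with the widest range over the region arrays are named as well. Genes that passed and neighbours in the genome (Afm, Fga) are also named. Hnf4a, Cubn, Hemgn, Alas2, Klf1, Tal1 and the dim genes given were chosen after their values were seen. Alternatives were quantile normalization, centring on the median, other floors, no filter, means over probe sets, array weights, blocks for number or style of the title, and arrays left out.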

Additional observations from a re-analysis of the deposited data

Results flagged for a closer look

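Both fibrinogen chains had 1 urogenital sinus array apart from the other 3, which were all at the floor. On sinus replicate 6 the log2 intensity of Fgb was 5.89 and that of Fgg was 7.46, against 5.65 on the others. The gap was the whole range of the group (ratio 1, critical value 0.829). Any value above a floor gives that ratio when the others lie on it, so nothing is read from the flag.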

How the results depend on the processing

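Over 20 alternatives for each comparison between regions and 19 for the others, the differences that were recomputed (Alb between bladder and sinus, Ttr in the other 3 comparisons, and the reference minus regions of the 9 genes) kept their direction. The count of passing genes was 0 of 9 between urethra and sinus, between bladder and urethra and between stages under each alternative run. Between bladder and sinus it was 0 under each except limma array weights, with 3; leaving out each array in turn gave 0 to 0 in all 4 comparisons. The count of genes above every region array on the reference was 9 throughout. The adjusted p in limma ran from 0.0158 to 0.596 for Alb between bladder and sinus, from 0.0617 to 0.399 for Ttr between bladder and urethra, from 0.131 to 0.886 between urethra and sinus, and from 0.192 to 0.825 between stages. With sinus replicate 1 and urethra replicate 1 left out together, the difference of Alb was -1.55.

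The numbers in the titles were not used to pair the samples in the main tests. The 7 same-numbered pairs correlated from -0.168 to 0.362 in their deviations from the region means. Of 8 arrays with a shared number, 1 correlated best with its own number. These correlations cannot decide whether same-numbered arrays share an embryo, since each region mean rests on few arrays. With the number as a replicate block, 0 of the 9 genes passed between regions, Ttr between bladder and urethra was at 4.61 (limma adjusted p = 0.0729), and Alb between bladder and sinus had an adjusted p of 0.477. The genes passing among all 15019 went from 382 to 132 (bladder and sinus), 2 to 0 (urethra and sinus) and 651 to 140 (bladder and urethra). With title style as a block the counts, in that order, were 467, 14 and 55, and with array weights the counts were 2668, 664 and 1873; the cause was not tested. A stage fit with the replicate block could not be made, since the number fixes the stage.

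The reference minus region difference of the dimmest genes depends on the floor: with no floor and with a floor at the 40th percentile it was 10.50 and 8.29 for Ahsg, 12.03 and 8.46 for Fgb and 12.50 and 8.78 for Fgg. For Apoh it was 4.63 with the mean of its probe sets instead of 7.94. Signal near the floor limits what can be said of Ahsg, Fgb, Fgg and Apoa1 on the region arrays.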
